A study of Mus musculus with 12 samples.

Results

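The expression of 9 genes that encode ligands, receptors and an antagonist of TGF-beta and activin signalling was followed across 4 populations of mouse fat fibroblasts. The genes were Tgfb1, Tgfb2, Tgfb3, Tgfbr1, Tgfbr2, Tgfbr3, Inhba, Inhbb and Fst, and they were taken by gene symbol with every probe set that carried the symbol. They had 16 probe sets, of 22626 on the array, and were 9 of the 12393 genes with a probe set of a single symbol. TGF-beta ligands are secreted in a latent form and, once freed, bind the type II receptor Tgfbr2, which recruits and phosphorylates the type I receptor Tgfbr1. Activins are dimers of inhibin beta subunits that act through their own receptor pair, and both branches converge on the transcription factors Smad2 and Smad3. In fat tissue TGF-beta and activin A are known as inhibitors of adipocyte differentiation that keep progenitors proliferating, and follistatin, the product of Fst, binds activins and blocks their access to receptors.

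The cells were fibroblasts of the stromal vascular fraction, the part of fat tissue left once the adipocytes are taken away. The donors of all groups were male mice with the Zfp423-GFP transgene, between 6 and 8 weeks old, on a mixed FVB and C57BL/6 background, and no group was without the transgene. Cultures from inguinal fat, a depot beneath the skin, or from epididymal fat, a depot within the abdomen, were sorted by green fluorescent protein (GFP) into positive and negative cells, which were cultured again in DMEM/F12 with serum and collected while still subconfluent. This gave 4 groups, the GFP+ and GFP- cells of each depot, with 3 Affymetrix arrays apiece. The labels do not tie the replicates to separate animals or cultures, and the p-values therefore measure the spread between these arrays, which may be technical.

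The values are deposited signal intensities on a linear scale, and differences are given on the log2(signal + 16) scale, which understates changes of dim probe sets. A probe set was called higher or lower when its adjusted p in limma, over all 22626 probe sets, was under 0.05, and weakly detected when its mean lay in the lowest 30% (a signal under 60.6). Median signals of the 12 arrays ran from 347 to 371, and arrays of a group correlated at 0.992 to 0.994. Zfp423, the transcription factor whose reporter defined the sort, was higher in GFP+ cells of both depots (inguinal 0.94, SE 0.18, adjusted p = 0.00246; epididymal 2.50, SE 0.18, adjusted p = 1.2e-08). Fibroblast markers were high in every group, with summed signals of 8 markers between 110882 and 125739. Single markers still moved: 5 were higher and 1 lower in epididymal GFP+ cells, and 4 higher and 1 lower in inguinal GFP+ cells. In GFP- cells 5 were higher and 3 lower in the inguinal depot. The shares of all genes called in these contrasts were 41.4%, 12.1% and 53.4%. The groups also differed in markers of other cell types. The summed signal of 12 macrophage and leukocyte markers was 10302 to 12234 in inguinal GFP- cells and at most 2747 elsewhere. The sum of 8 mesothelial markers was 32964 to 35789 in epididymal GFP- cells, 6474 to 6853 in epididymal GFP+ cells and at most 2247 in inguinal cells. The mesothelial marker Upk3b (10.5 and 12.5) in inguinal cells, and the leukocyte marker Ptprc (9.31 and 16.8) in both GFP+ groups, lay at the level of olfactory receptor probe sets, whose group medians were 19.4 to 22.3. Other markers of these lists were above that level there: Krt19 averaged 1292 and 1186 in inguinal GFP+ and GFP- cells, and Csf1r 1125 and 1065 in inguinal and epididymal GFP+ cells. The 9 mural markers, of which Pdgfrb, also made by fibroblasts, and the smooth muscle myosin gene Myh11 had the highest signals in inguinal cells, summed to 17465 to 23363 in inguinal cells, 41209 to 42939 in epididymal GFP+ and 29026 to 29877 in epididymal GFP- cells. The 5 adipocyte markers summed to 4089 to 6548 in GFP+ and 393 to 1488 in GFP- cells, most of it Fabp4, and Adipoq was at most 30.4 in any group mean. The 8 endothelial markers reached 4609 to 4872 in epididymal GFP- cells through Kdr, with Pecam1 at most 22.5. In RNA from a whole culture, fewer cells of a type and less RNA per cell cannot be told apart.

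Taking the brightest probe set of each gene, the epididymal sort by GFP separated 8 of the 9. Inhbb, Tgfbr1, Tgfb1, Inhba and Fst were higher in GFP+ cells, and Tgfb2, Tgfb3 and Tgfbr2 were lower. Among all 12393 genes the same contrast called 41.4%. The inguinal sort separated 5 of the 9, with Inhbb and Tgfbr2 higher and Tgfb3, Fst and Tgfbr1 lower in GFP+ cells, where 12.1% of all genes were called. Counted over probe sets, 12 of 16 were called in the epididymal contrast (7 higher, 5 lower) against 38.1% of all probe sets (19.1% higher, 19% lower), and 6 of 16 in the inguinal contrast (2 higher, 4 lower) against 10.5% (4.24% higher, 6.23% lower). Median centring of the arrays turned the inguinal split over all probe sets from 960 higher and 1410 lower to 1598 and 1044 and left 6 member probe sets called. The epididymal count of 12 was less stable. It was 8 in a fit without the variance trend (35.4% of all probe sets) and 10 under median centring. Leaving out the second epididymal GFP+ array gave 9, and leaving out the first epididymal GFP- array gave 13. Of the 16 probe sets 14 were not weakly detected, and among all such probe sets the shares called were 51.4% and 14.1%. The median difference of the 16 was 0.39 in the epididymal and -0.04 in the inguinal contrast, against 0.01 and -0.01 over all probe sets.

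**Figure D1:**
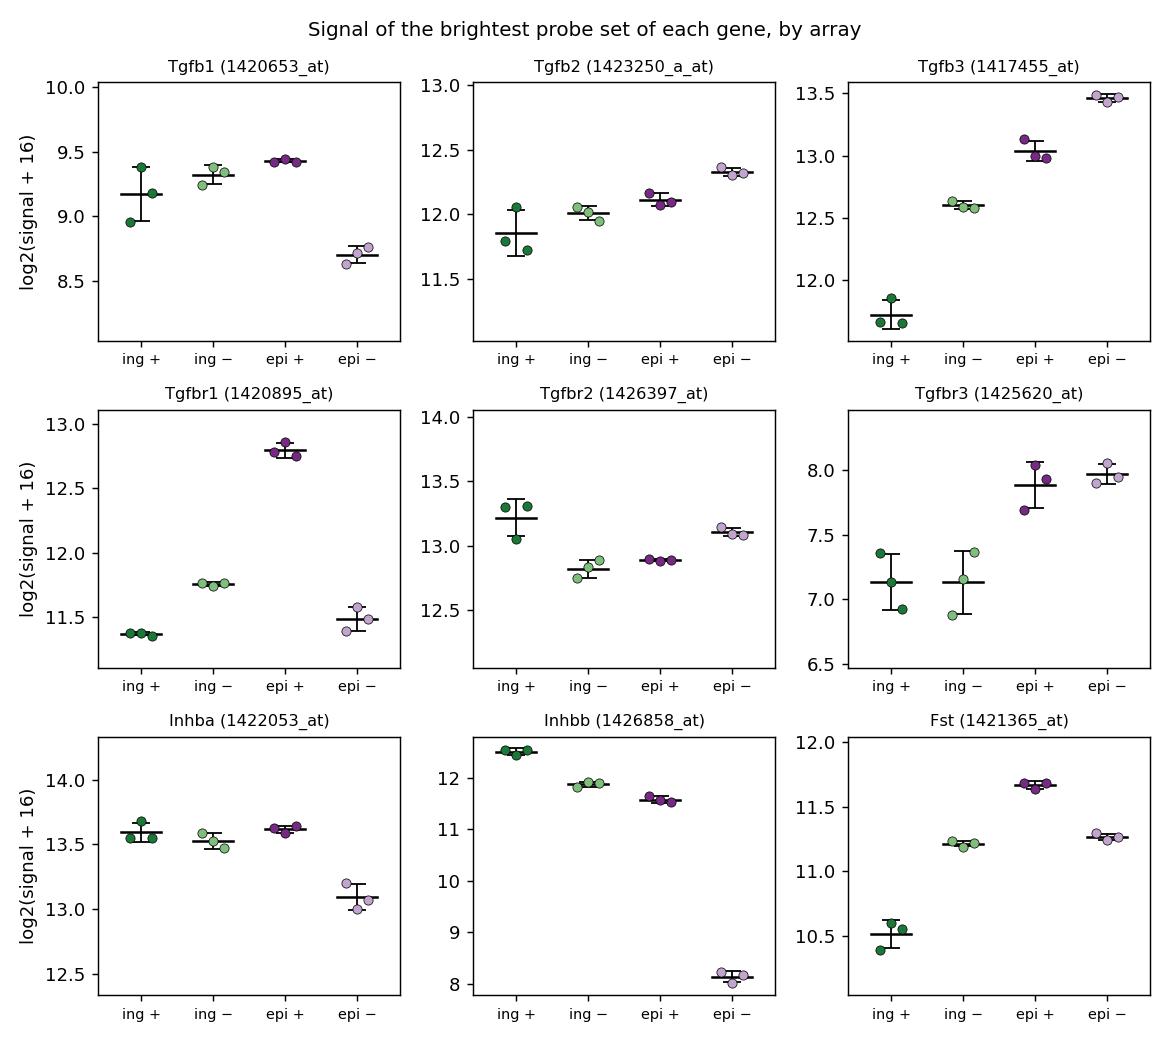
Signal of the brightest probe set of each of the 9 genes on every array, on a log2(signal + 16) axis that does not start at 0, by group, with long bars for the group means and error bars for the SD of 3 arrays. Inhbb in epididymal GFP- cells, at 242 to 282, lies far below its other groups, Tgfbr1 in epididymal GFP+ cells, at 6856 to 7418, lies above all its other arrays, and Tgfb3 steps up in each group from inguinal GFP+ to epididymal GFP- cells.

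Promoters of genes that moved with the epididymal sort are printed, grouped by their brightest probe sets. Those higher in GFP+ cells (Inhbb, Tgfbr1, Inhba, Tgfb1) can be read beside those lower there (Tgfb2, Tgfbr2). A dimmer Tgfbr2 probe set, 1425444_a_at, was called higher there (0.37, adjusted p = 0.0441), a fragile call described below. Each promoter is the 250 bases before a transcript start annotated in RefSeq (GRCm38.p6), 5′ to 3′ on the gene's strand, and 6 of the 9 genes had an entry. For Inhba and Tgfb2 that start lies inside the annotated extent of the gene, and for the other 4 it is the outer end of the gene. Capitals mark matches, on either strand, to CAGAC (the core bound by SMAD proteins), GGGCGG (the GC box), TATAAA (the TATA box) and TGACGTCA (the cAMP response element). Tgfb3, Tgfbr3 and Fst had no entry and were not scanned, although Tgfb3 and Fst also moved with the epididymal sort. No window of the 6 genes with an entry held TGACGTCA. No matches to different motifs overlap in the printed sequences, and for Tgfbr1 the first of its 2 annotated starts is shown.
Inhbb, chr1:119422249-119422498, minus strand: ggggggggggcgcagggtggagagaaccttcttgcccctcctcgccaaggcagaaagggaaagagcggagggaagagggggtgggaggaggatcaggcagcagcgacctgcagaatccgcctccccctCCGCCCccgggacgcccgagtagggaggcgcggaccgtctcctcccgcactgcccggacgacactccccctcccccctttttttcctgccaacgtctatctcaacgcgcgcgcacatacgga
Tgfbr1, chr4:47352972-47353221, plus strand: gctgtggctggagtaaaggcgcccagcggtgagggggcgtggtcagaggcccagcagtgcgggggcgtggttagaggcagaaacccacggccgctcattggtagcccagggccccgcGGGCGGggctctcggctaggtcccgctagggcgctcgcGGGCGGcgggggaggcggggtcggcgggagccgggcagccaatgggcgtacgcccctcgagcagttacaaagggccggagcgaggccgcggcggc
Inhba, chr13:16011601-16011850, plus strand: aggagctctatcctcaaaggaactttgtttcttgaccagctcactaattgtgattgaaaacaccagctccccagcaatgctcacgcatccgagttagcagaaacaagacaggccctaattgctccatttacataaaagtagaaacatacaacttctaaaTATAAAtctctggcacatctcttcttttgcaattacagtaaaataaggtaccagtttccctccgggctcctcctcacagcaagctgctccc
Tgfb1, chr7:25686752-25687001, plus strand: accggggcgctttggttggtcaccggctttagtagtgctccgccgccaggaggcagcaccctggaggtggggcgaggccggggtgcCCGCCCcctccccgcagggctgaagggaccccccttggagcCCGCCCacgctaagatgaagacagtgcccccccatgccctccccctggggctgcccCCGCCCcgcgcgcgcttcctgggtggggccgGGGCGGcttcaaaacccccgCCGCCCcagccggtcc
Tgfb2, chr1:186705990-186706239, minus strand: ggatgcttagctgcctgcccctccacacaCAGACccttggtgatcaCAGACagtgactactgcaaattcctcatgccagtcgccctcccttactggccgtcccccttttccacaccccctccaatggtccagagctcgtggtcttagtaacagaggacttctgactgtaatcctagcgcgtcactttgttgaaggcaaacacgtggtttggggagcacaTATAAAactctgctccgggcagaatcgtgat
Tgfbr2, chr9:116175364-116175613, minus strand: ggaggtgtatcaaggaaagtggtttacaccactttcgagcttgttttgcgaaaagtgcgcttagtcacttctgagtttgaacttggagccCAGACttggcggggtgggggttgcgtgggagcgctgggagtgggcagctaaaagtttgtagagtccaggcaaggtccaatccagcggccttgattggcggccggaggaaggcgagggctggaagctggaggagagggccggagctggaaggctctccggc
Of all 32851 mouse promoter windows of this length, 42.2% held CAGAC, 32.7% GGGCGG, 12.4% TATAAA and 1.55% TGACGTCA. The Tgfb1 promoter held 5 GC boxes, the printed one of Tgfbr1 2 and that of Inhbb 1. The window before the second Tgfbr1 start, not printed, held no GC box and 1 CAGAC core, 203 bases before that start. Tgfb2 had 2 CAGAC cores, 221 and 204 bases before the start, and a TATA box 31 bases before it, and Tgfbr2 had 1 CAGAC core. Inhba had a TATA box 91 bases before the start and neither of the other motifs. GC content ran from 43.2% for Inhba to 75.2% for Tgfb1, around a median of 52.4% over all windows. These matches describe the letters of the windows.

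Among the TGF-beta ligands, Tgfb3 separated all 4 groups. Its product is the isoform best known from palate fusion and wound repair. Signals in the 3 arrays were 3228, 3693 and 3205 in inguinal GFP+ cells, 6368, 6138 and 6116 in inguinal GFP- cells, 8961, 8179 and 8065 in epididymal GFP+ cells, and 11471, 11004 and 11374 in epididymal GFP- cells. No array of one group reached into another, and each neighbouring pair in this order differed beyond the spread. In the inguinal depot Tgfb3 was 1.84-fold lower in GFP+ than in GFP- cells (-0.88, SE 0.05, adjusted p = 1.34e-08). The epididymal difference had the same sign and was smaller (-0.43, SE 0.05, adjusted p = 3.56e-06), and the difference between the depots was itself called (-0.45, SE 0.07, adjusted p = 0.000107). Inguinal cells had less Tgfb3 RNA than epididymal cells in both sorted fractions, 2.48-fold in GFP+ cells (-1.31, SE 0.05, adjusted p = 1.24e-11) and 1.82-fold in GFP- cells (-0.86, SE 0.05, adjusted p = 5.82e-10). The group means spanned 1.74 on the log2 scale, which placed this probe set at percentile 94.7 of all probe sets.

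Tgfb2, which encodes the isoform that binds its receptors well only with the help of betaglycan, followed the same order of groups over a narrower range and was read by 3 probe sets. On the brightest, 1423250_a_at, the signals were 3524, 4239.6 and 3366 in inguinal GFP+, 4246, 4141 and 3943 in inguinal GFP-, 4580.25, 4281 and 4371 in epididymal GFP+, and 5254, 5036 and 5092 in epididymal GFP- cells. The inguinal groups overlapped, the epididymal GFP+ arrays began just above them, and the epididymal GFP- arrays stood above the rest. All 3 probe sets were lower in epididymal GFP+ than in GFP- cells, by -0.22, -0.28 and -0.27 (adjusted p = 0.0119, 0.00771 and 0.0121). Inguinal cells were lower than epididymal cells on all 3 probe sets in both fractions, by -0.26 to -0.57 in GFP+ and by -0.32 to -0.50 in GFP- cells. Between the inguinal fractions only 1450922_a_at was called (-0.35, SE 0.08, adjusted p = 0.00888), and the brightest was not (-0.15, 95% interval -0.29 to -0.02, adjusted p = 0.158). That result turned on the second inguinal GFP+ array. Without it 1423250_a_at and 1450923_at were called too (-0.25, adjusted p = 0.000491 and -0.32, adjusted p = 0.000293), and without the first inguinal GFP+ array 1450922_a_at was not (-0.29, adjusted p = 0.054). The 1450922_a_at call was also lost in a fit without the variance trend (adjusted p = 0.0608) and with only the groups compared (adjusted p = 0.0574). The epididymal calls of 1423250_a_at and 1450922_a_at were also near the threshold and were lost without the second (adjusted p = 0.0506) and the first (adjusted p = 0.057) epididymal GFP+ array respectively. Both were lost without the variance trend too (adjusted p = 0.0554 and 0.0506). No difference between depots in the GFP contrast was called for any of the 3 (0.06, 0.09 and -0.08, adjusted p = 0.672, 0.626 and 0.683), except that 1450922_a_at was called without the second inguinal GFP+ array (-0.21, adjusted p = 0.0147).

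Tgfb1, the isoform most studied in fibrosis, did not follow the order of Tgfb2 and Tgfb3. Signals were 482, 650.2 and 563 in inguinal GFP+, 589, 650.2 and 635 in inguinal GFP-, 671, 681 and 669.9 in epididymal GFP+ and 380.3, 404 and 418 in epididymal GFP- cells. The epididymal GFP- arrays lay below every other array, and the inguinal fractions overlapped. Tgfb1 was 1.66-fold higher in epididymal GFP+ than in GFP- cells (0.73, SE 0.09, adjusted p = 6.36e-06). In the inguinal depot the difference was -0.15 (95% interval -0.34 to 0.04, adjusted p = 0.372), and this contrast was unequal between depots (-0.88, SE 0.13, adjusted p = 5.19e-05). The 3 upper groups were hard to rank. Inguinal GFP- and epididymal GFP+ cells did not differ beyond the spread (-0.11, 95% interval -0.30 to 0.08, adjusted p = 0.361), and the lower level of inguinal than of epididymal GFP+ cells (-0.26, adjusted p = 0.0265) lost its call in 8 of 21 alternative treatments of the data. These included leaving out the first or the third inguinal GFP+ array (adjusted p = 0.153 and 0.0518) or any 1 of the epididymal GFP+ arrays (adjusted p = 0.0553 to 0.068).

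Of the receptors, Tgfbr1, the type I receptor kinase, gave the widest range. Its brightest probe set read 2643, 2647.5 and 2609 in inguinal GFP+, 3467, 3403 and 3462 in inguinal GFP-, 7009, 7418 and 6856 in epididymal GFP+, and 2678, 3041 and 2846 in epididymal GFP- cells. Epididymal GFP+ cells stood alone at the top, and the other groups lay within a narrow band below. Sorting for GFP gave opposite results in the depots: Tgfbr1 was 2.48-fold higher in epididymal GFP+ cells (1.31, SE 0.04, adjusted p = 7.75e-13) and 1.31-fold lower in inguinal GFP+ cells (-0.39, SE 0.04, adjusted p = 1.28e-05). The difference between these contrasts was -1.69 (SE 0.06, adjusted p = 5.38e-12). Inguinal GFP+ cells were 2.68-fold below epididymal GFP+ cells (-1.42, adjusted p = 7.32e-13), and inguinal GFP- cells were slightly above epididymal GFP- cells (0.27, adjusted p = 4.72e-05). The mural marker sum, also highest in epididymal GFP+ cells, was 41209 to 42939 there against 29026 to 29877 in epididymal GFP- cells, with 4 of 9 markers higher and 2 lower, and its part in the Tgfbr1 difference was not tested. The lowest neighbours in the order, inguinal GFP+ and epididymal GFP-, differed by -0.11 (adjusted p = 0.0311), a call lost in 7 of 21 alternatives, among them without the first (adjusted p = 0.0595) or the third (0.0739) inguinal GFP+ array and without the second (0.172) or the third (0.0636) epididymal GFP- array.

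Tgfbr2, the ligand-binding type II receptor, moved the other way round. Signals of its brightest probe set were 10064, 8474 and 10131 in inguinal GFP+, 6863, 7296 and 7563 in inguinal GFP-, 7630.1, 7544 and 7564.5 in epididymal GFP+ and 9040.15, 8741 and 8664 in epididymal GFP- cells. It was higher in GFP+ than in GFP- cells of the inguinal depot (0.40, SE 0.05, adjusted p = 0.000123) and lower in GFP+ cells of the epididymal depot (-0.22, SE 0.05, adjusted p = 0.00417). Between depots the contrast differed by 0.61 (SE 0.08, adjusted p = 1.15e-05). The span of the group means, 0.40, lay at percentile 41.8 of all probe sets. The 2 low groups, inguinal GFP- and epididymal GFP+, did not differ beyond the spread (-0.07, adjusted p = 0.349). Nor were the 2 high groups told apart (inguinal GFP+ minus epididymal GFP-, 0.11, 95% interval -0.00 to 0.23, adjusted p = 0.097), although this difference was called without the second inguinal GFP+ array (0.20, adjusted p = 0.000237) and under median centring (0.15, adjusted p = 0.0198).

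Betaglycan, the co-receptor encoded by Tgfbr3 that presents Tgfb2 protein to the signalling receptors, separated the depots and not the sorted fractions. Its one probe set read 148, 125 and 105 in inguinal GFP+, 101, 126 and 149 in inguinal GFP-, 191, 247 and 228 in epididymal GFP+ and 223, 249.6 and 231 in epididymal GFP- cells. Every inguinal array lay below every epididymal array, and within a depot the fractions overlapped. Inguinal cells were lower in GFP+ (-0.75, SE 0.15, adjusted p = 0.00073) and in GFP- cells (-0.84, SE 0.15, adjusted p = 0.000229). The GFP contrasts were 0.01 (95% interval -0.32 to 0.33, adjusted p = 0.991) and -0.08 (-0.40 to 0.24, adjusted p = 0.747), so these dim signals leave changes of up to those bounds undetected.

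The activin subunit Inhbb, which forms activin B, had the widest range of the 9 genes. On its brightest probe set, 1426858_at, signals were 5984, 5548 and 5953 in inguinal GFP+, 3597, 3839 and 3788 in inguinal GFP-, 3192, 3019.6 and 2923 in epididymal GFP+, and 282, 242 and 272 in epididymal GFP- cells. No 2 groups overlapped, and the epididymal GFP- arrays sat far below all others. Inhbb was 10.9-fold higher in epididymal GFP+ than in GFP- cells (3.45, SE 0.05, adjusted p = 2.7e-16) and 1.56-fold higher in inguinal GFP+ cells (0.64, SE 0.05, adjusted p = 1.14e-06). It was the only one of the 9 whose brightest probe set was higher in GFP+ cells of both depots, and the contrasts differed by -2.81 (SE 0.08, adjusted p = 3.57e-13). Inguinal cells were higher than epididymal cells by 0.93 in the GFP+ fraction (adjusted p = 1.78e-09) and by 3.74 in the GFP- fraction (adjusted p = 5.78e-17). The middle groups, inguinal GFP- and epididymal GFP+, also differed (0.30, adjusted p = 0.000369). The span of 4.38 was at percentile 99.4 of all probe sets. In the epididymal contrast 7 of 8 mesothelial markers were lower in GFP+ cells (median of the list -3.21), their summed signal being 32964 to 35789 in GFP- and 6474 to 6853 in GFP+ arrays. Their part in the epididymal differences of Inhbb and of the other genes was not tested.

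Inhba, whose product forms activin A, was bright in all groups. Signals were 11974, 13116 and 11959 in inguinal GFP+, 12321, 11771 and 11332 in inguinal GFP-, 12633, 12284 and 12747 in epididymal GFP+ and 9389, 8171 and 8591 in epididymal GFP- cells. Only the epididymal GFP- arrays stood apart, below the other 9. Inhba was 1.44-fold higher in epididymal GFP+ than in GFP- cells (0.53, SE 0.05, adjusted p = 1.74e-07), and the inguinal contrast was 0.06 (95% interval -0.04 to 0.16, adjusted p = 0.495). Between depots the contrast differed by -0.46 (SE 0.07, adjusted p = 5.21e-05). GFP+ cells of the 2 depots differed by -0.02 (95% interval -0.13 to 0.08, adjusted p = 0.708), while inguinal GFP- cells were above epididymal GFP- cells (0.44, SE 0.05, adjusted p = 9.99e-07).

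Follistatin RNA took opposite directions in the depots. Fst signals were 1325, 1533 and 1487 in inguinal GFP+, 2392, 2321 and 2365 in inguinal GFP-, 3264.5, 3162 and 3279 in epididymal GFP+ and 2494, 2409 and 2438 in epididymal GFP- cells. Inguinal GFP+ arrays were lowest and epididymal GFP+ arrays highest, with the GFP- groups close together between them. Fst was 1.62-fold lower in inguinal GFP+ than in GFP- cells (-0.70, SE 0.05, adjusted p = 6.93e-08) and 1.32-fold higher in epididymal GFP+ cells (0.40, SE 0.05, adjusted p = 3.3e-06). The contrasts differed by -1.10 (SE 0.07, adjusted p = 2.66e-09). Between the GFP+ fractions the inguinal level was 2.22-fold lower (-1.15, SE 0.05, adjusted p = 2.44e-11). The GFP- fractions differed by -0.05 (95% interval -0.15 to 0.05, adjusted p = 0.386), although their arrays did not overlap. On the brightest probe sets, inguinal GFP+ cells had a higher Inhbb signal, a lower Fst signal and an Inhba difference that was not called. The second Inhbb probe set, 1426859_at, was not called in that contrast (-0.09, adjusted p = 0.713). In the same contrast 10 of 12 macrophage and leukocyte markers were lower in GFP+ cells, with summed signals of 1692 to 1992 against 10302 to 12234 in GFP- arrays, and their part in the inguinal differences was not tested.

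**Figure D2:**
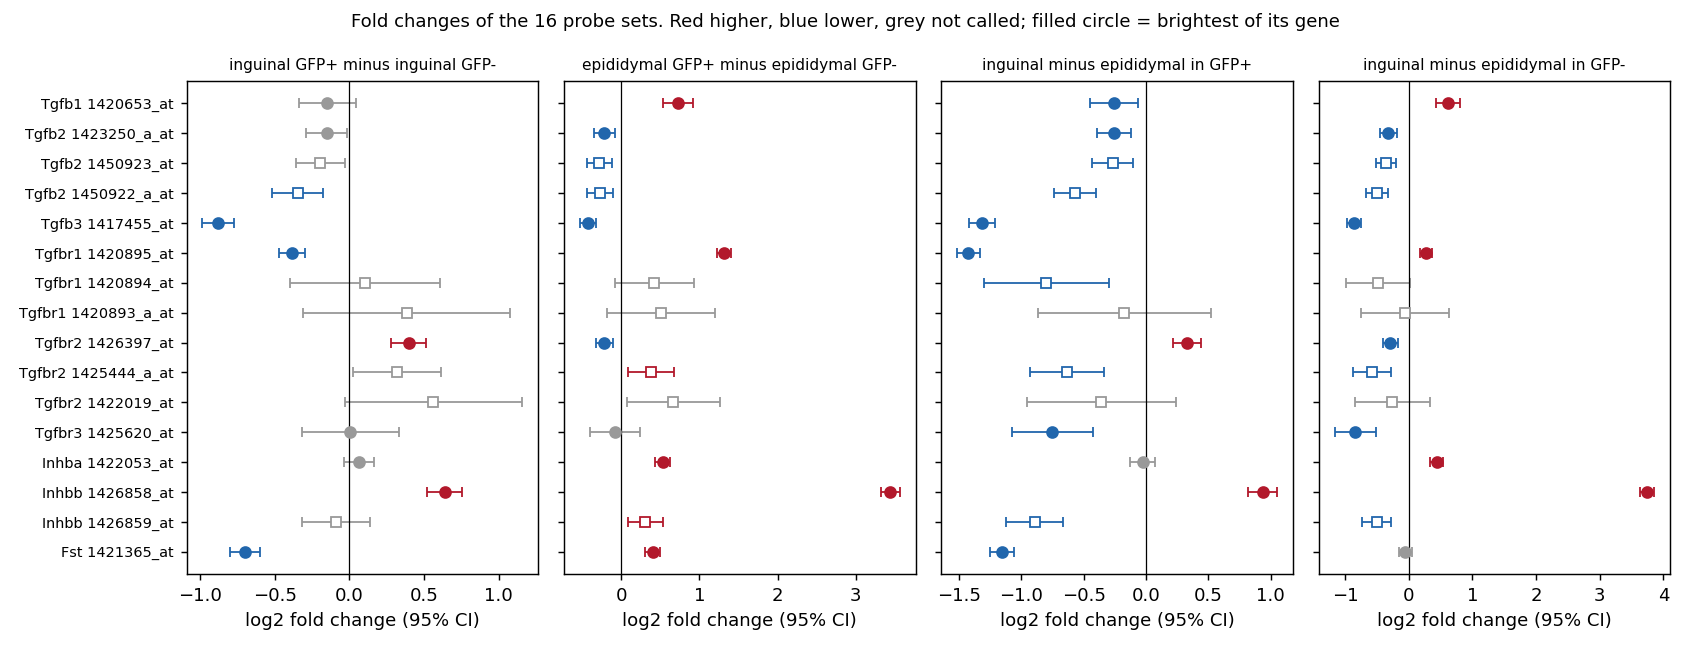
Log2 differences with 95% intervals for every probe set of the 9 genes, in the GFP contrast of each depot and the depot contrast of each fraction, from the fit over all probe sets. Inhbb 1426858_at reaches 3.45 in the epididymal GFP contrast, and Tgfbr1 1420895_at and Fst lie on opposite sides of 0 in the 2 depots.

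By brightest probe set, the difference between the depots' GFP contrasts was called for 7 of the 9 genes, where 34.1% of all genes were called. Tgfbr2 had a positive sign, and Tgfb1, Tgfb3, Tgfbr1, Inhba, Inhbb and Fst had a negative one. Tgfb2 and Tgfbr3 were not called. Over probe sets the count was 7 of 16 (1 higher, 6 lower) against 30.5% of all (14.3% higher, 16.2% lower), with a median of -0.22 against -0.02. With weakly detected probe sets left out, 2 of the 16 among them, 8 were called against 43.9% of all. Across all probe sets 3238 were higher and 3661 lower, a split that median centring of the arrays turned to 4485 and 2824, while the same setting left 7 member probe sets called.

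Set depot against depot, inguinal cells were lower on 11 and higher on 2 of the 16 probe sets in the GFP+ fraction, where 47.1% of all probe sets were called (22.4% higher, 24.7% lower). In the GFP- fraction they were lower on 8 and higher on 4, against 49.7% (25.6% higher, 24.1% lower). By brightest probe set 8 of 9 genes were called in each fraction, against 50.4% and 53.4% of all genes, with 2 higher and 6 lower in GFP+ (median -0.26) and an even split of 4 and 4 in GFP- cells (median -0.05). The ligands Tgfb2 and Tgfb3 and the co-receptor Tgfbr3 were lower in inguinal cells in both fractions. On the brightest probe sets Inhbb was higher there in both, and Tgfb1, Tgfbr1 and Tgfbr2 took opposite signs in the fractions. Dimmer probe sets did not share these patterns. Tgfbr2 1425444_a_at was lower in inguinal cells in GFP+ (-0.64, adjusted p = 0.00137) and GFP- cells (-0.58, adjusted p = 0.00248), as was Inhbb 1426859_at (-0.89 and -0.50). Tgfbr1 1420894_at was lower in GFP+ cells (-0.80) and not called in GFP- cells (-0.48, adjusted p = 0.107). The medians of the 16 were -0.47 and -0.30, against -0.03 and -0.01 over all probe sets. With weakly detected probe sets left out, 2 of the 16 among them, 13 were called in GFP+ and 12 in GFP- cells. The shares of all probe sets were then 64.8% and 67.8%. In the GFP+ comparison 5057 of all probe sets were higher and 5591 lower, and 6667 and 4311 after median centring. Between depots 11 of 12 macrophage and leukocyte markers were higher in inguinal GFP- cells, 7 of 8 mesothelial markers were lower in inguinal GFP- and 6 of 8 in inguinal GFP+ cells, and their part in the depot differences was not tested. With median centring 11 member probe sets remained past the threshold, Tgfb1 and Tgfb2 1450923_at being lost (adjusted p = 0.121 and 0.0552).

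Probe sets of one gene did not always give one answer. Of the 9 genes 4 had more than 1 probe set, giving 7 pairs of the brightest with another, and each pair was tested on its difference within arrays, with adjustment over 7987 pairs of all genes. In the epididymal GFP contrast 2 of the 7 pairs differed, against 12.3% of all pairs, and 5 did with a pseudocount of 64 in place of 16. In the inguinal contrast 1 differed, against 0.438%, but no pair did without the first or second inguinal GFP+ array or without the second or the third inguinal GFP- array. The difference between the depots' contrasts separated 2 of 7 pairs (5.03% of all), the depot contrast 4 of 7 in GFP+ cells (27% of all) and 1 of 7 in GFP- cells (26.3% of all).

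Inhbb showed the sharpest disagreement. Its dimmer probe set, 1426859_at, read 280.05, 262 and 316 in inguinal GFP+, 261, 328 and 329 in inguinal GFP-, 488, 604 and 545 in epididymal GFP+ and 459, 424 and 428 in epididymal GFP- cells. Where the bright probe set fell to its lowest in epididymal GFP- cells, the dim one lay above all inguinal arrays. The GFP contrasts on the dim probe set were -0.09 (adjusted p = 0.713) in inguinal and 0.31 (adjusted p = 0.0331) in epididymal cells, the latter lost in 6 of 20 alternatives (adjusted p over all 20 from 0.0175 to 0.151), among them without the second or the third epididymal GFP+ or epididymal GFP- array. The pair differed by 3.14 (SE 0.11, adjusted p = 4.85e-07) in the epididymal and by 0.73 (SE 0.11, adjusted p = 0.0202) in the inguinal contrast. Between depots the signs were opposite: in GFP- cells inguinal was higher by 3.74 on the bright and lower by -0.50 (adjusted p = 0.000947) on the dim probe set. In GFP+ cells the values were 0.93 and -0.89 (adjusted p = 4.98e-06 for the dim one). The sequences the probe sets match were not analysed here.

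Tgfbr2 also gave opposite signs. Its probe set 1425444_a_at read 226, 206.5 and 259 in inguinal GFP+, 158, 178 and 211 in inguinal GFP-, 352, 343 and 404 in epididymal GFP+ and 342, 262 and 239.5 in epididymal GFP- cells. It was higher in epididymal GFP+ cells (0.37, SE 0.14, adjusted p = 0.0441), where 1426397_at was lower, and the pair differed by -0.59 (SE 0.12, adjusted p = 0.00977). The single call was fragile, being lost in 12 of 20 alternatives (adjusted p over all 20 from 0.00776 to 0.187, and over the 12 from 0.0507 to 0.187). Among the 12 were the fits without any 1 of the epididymal GFP+ arrays, without the second or the third epididymal GFP- array, and without the first inguinal GFP+ or second inguinal GFP- array. In the inguinal contrast the probe sets shared a sign (0.40 and 0.32, the second with adjusted p = 0.193). Between the GFP+ fractions inguinal cells were higher on 1426397_at (0.33, adjusted p = 0.000116) and lower on 1425444_a_at (-0.64, adjusted p = 0.00137). The third probe set, 1422019_at, was weakly detected, with signals of 1.63 to 35.0, and none of its GFP or depot contrasts within a fraction or depot was called (0.67, adjusted p = 0.0751 in the epididymal GFP contrast, and 0.90, adjusted p = 0.0243 without the first epididymal GFP- array).

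The dimmer probe sets of Tgfbr1 carried little. Signals of 1420894_at were 47.1, 65.7 and 44.1 in inguinal GFP+, 39.8, 79.4 and 30.85 in inguinal GFP-, 125, 92.0 and 91.1 in epididymal GFP+ and 78.7, 68.4 and 69.0 in epididymal GFP- cells. Its highest arrays were also those of epididymal GFP+ cells, but neither GFP contrast was called (0.42, adjusted p = 0.19 in epididymal and 0.10, adjusted p = 0.867 in inguinal cells). Between GFP+ fractions it was lower in inguinal cells (-0.80, SE 0.24, adjusted p = 0.0113), the sign of 1420895_at. That call was lost without the first epididymal GFP+ array (-0.67, adjusted p = 0.0547) and under quantile normalization (-0.58, adjusted p = 0.0568). The weakly detected 1420893_a_at, with signals of 5.62 to 42.9, was called in no comparison. The 3 probe sets of Tgfb2 gave one sign in each contrast between groups, and 1450922_a_at fell further than 1423250_a_at between depots in GFP+ cells (difference of the pair 0.32, SE 0.06, adjusted p = 0.005).

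**Figure D3:**
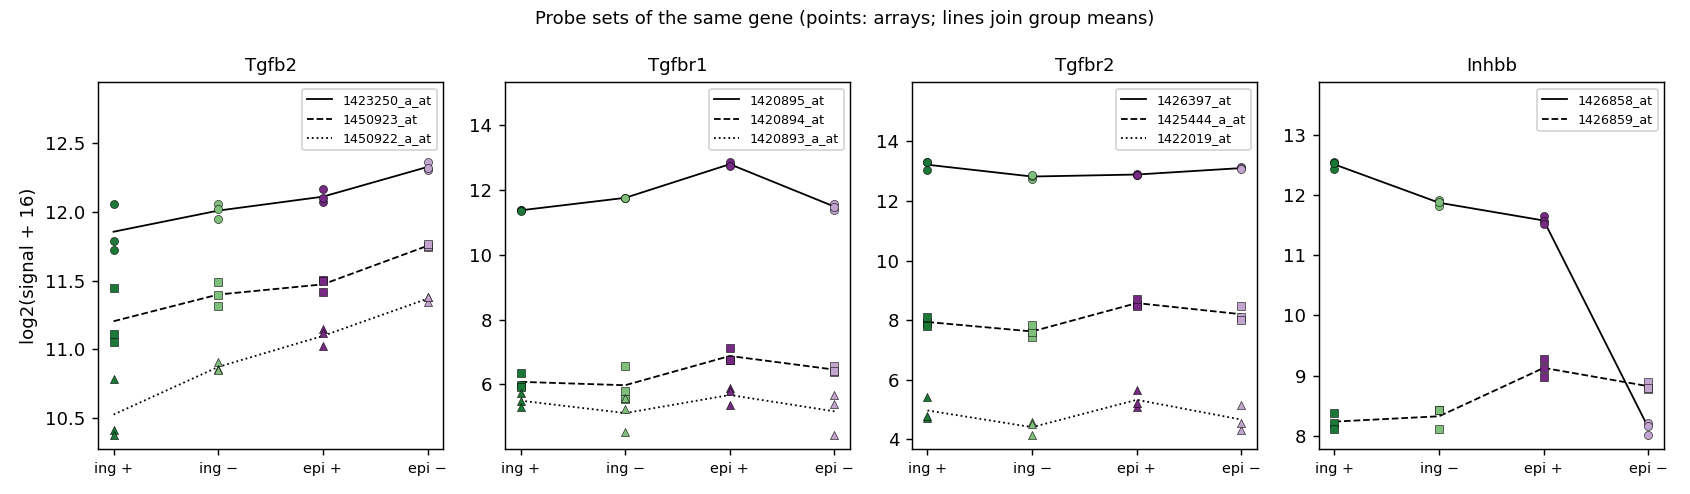
Signal of every probe set of Tgfb2, Tgfbr1, Tgfbr2 and Inhbb on each array (log axis), by group, with a line for each probe set through its group means. The bright Inhbb probe set drops to 242 to 282 in epididymal GFP- cells while the dim one reads 424 to 459 there, and the 3 lines of Tgfb2 rise toward epididymal GFP- cells.

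The other genes of the pathway were read from lists by role, of which 65 of 76 genes were measured. In the epididymal GFP contrast 22 were higher and 20 lower in GFP+ cells, in the inguinal contrast 6 were higher and 15 lower, and the difference between the contrasts was called for 37 of 65 (13 higher, 24 lower). The gene background given above was 41.4%, 12.1% and 34.1%. Of the 65 genes 6 were weakly detected, a smaller share than among all genes (3385 of 12393).

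Among 8 other receptors and co-receptors, 3 were higher and 2 lower in epididymal GFP+ cells and 2 were higher and 1 lower in inguinal GFP+ cells (62.5% and 37.5% of the list). Eng, the endothelial-type co-receptor endoglin, averaged 1464 ± 61.3 (SD, n = 3) in epididymal GFP+ and 196 ± 17.2 in epididymal GFP- cells (2.81, SE 0.07, adjusted p = 2.07e-14). The type I receptor Acvrl1, known as ALK1, was higher there by 1.66 (adjusted p = 1.29e-08) and the activin type II receptor Acvr2a by 1.44 (adjusted p = 1.02e-10). The pseudoreceptor Bambi, an inhibitor of TGF-beta signalling, was lower by -0.87, and Acvr1 by -0.39. In inguinal cells Bambi was higher in GFP+ cells (0.39, adjusted p = 0.00137), as was Acvrl1 (0.47, adjusted p = 0.0176), while Acvr1 was lower (-0.11, adjusted p = 0.0281). The Acvrl1 call was lost without the first or the third inguinal GFP+ or the first or second inguinal GFP- array (adjusted p = 0.0567 to 0.0885), and that of Acvr1 in 8 alternatives. The list's medians, -0.03 and 0.04, lay near those of all genes (0.01 and -0.01).

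Of 8 other ligands and antagonists 5 were weakly detected. The follistatin-like antagonist Fstl3 was higher in epididymal GFP+ cells (1.44, SE 0.05, adjusted p = 1.33e-12), averaging 2820 ± 10.4 against 1029 ± 59.0 in GFP- cells (SD, n = 3). Its inguinal contrast was -0.10 and was not called. Lefty1, an inhibitor of nodal signalling, was lower in epididymal GFP+ cells (-0.62, adjusted p = 0.000135) and in inguinal GFP+ cells (-0.34, adjusted p = 0.0434), the latter in few settings, since 15 alternatives lost it. The weakly detected Gdf11 was higher in epididymal GFP+ cells (0.61, adjusted p = 0.0222), a call lost without the first epididymal GFP+ or the first or the third epididymal GFP- array.

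Genes of latency and activation, which store the ligands in the matrix or free them, were mostly lower in inguinal cells. Of 14 measured, 10 were lower and 1 higher in inguinal than in epididymal GFP+ cells, and 8 were lower and 3 higher in GFP- cells. This is 78.6% called in each fraction, against 50.4% and 53.4% of all genes. None of the 14 was weakly detected, and with weakly detected probe sets left out 64.8% and 67.8% of all probe sets were called. The list's medians were -0.46 and -0.39, against -0.04 and -0.02 over all genes. All 4 latent TGF-beta binding proteins, which tether latent ligand to the matrix, were lower in inguinal cells of both fractions. Ltbp1 averaged 964 ± 170 and 893 ± 61.8 in inguinal GFP+ and GFP- cells against 2319.5 ± 90.9 and 2683 ± 38.4 in epididymal GFP+ and GFP- cells (SD, n = 3; differences of -1.27 and -1.57, adjusted p = 1.24e-08 and 3.88e-10). Ltbp2 was lower by -0.57 and -0.43, Ltbp3 by -0.50 and -0.81 and Ltbp4 by -0.43 and -0.49, the first numbers being those of GFP+ cells. The gelatinase Mmp2, which can free latent ligand, was lower by -0.97 and -0.85. In the GFP contrasts the list split, with 4 higher and 4 lower in epididymal and 1 higher and 3 lower in inguinal GFP+ cells. The integrin subunit Itgb5 and the matrix protein Emilin1, which holds back ligand processing, were higher in epididymal GFP+ cells (1.10 and 1.15, adjusted p = 7.56e-13 and 1.86e-10), and the integrin subunit Itgav was lower (-0.41, adjusted p = 4.37e-09). Ltbp2, Ltbp3 and the membrane protease Mmp14 were lower in GFP+ cells of both depots, in the inguinal depot by -0.29, -0.27 and -0.16 (adjusted p = 7.33e-05, 0.000537 and 0.000921).

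Of 13 SMADs and their regulators, 3 were higher and 6 lower in epididymal GFP+ cells, and 2 were lower in inguinal GFP+ cells. These are 69.2% and 15.4% of the list, against 41.4% and 12.1% of all genes, so the inguinal share was near the background. The inhibitory Smad7 was lower in GFP+ cells of both depots (-0.42 in epididymal; -0.25, adjusted p = 0.0393 in inguinal cells), but 10 alternatives lost the inguinal call. Pmepa1, which sequesters receptor-activated SMADs, was lower in inguinal GFP+ cells (-0.24, adjusted p = 2.1e-05). The co-repressor Ski was lower in epididymal GFP+ cells (-0.38, adjusted p = 4.21e-05), and Smad4, the common partner SMAD, and the phosphatase gene Ppm1a were higher (both 0.18, adjusted p = 4.75e-05 and 7.99e-05). Between depots the inhibitory Smad6 was lower in inguinal cells of both fractions (-0.87 and -1.09, adjusted p = 3.62e-06 and 1.69e-07), as was the co-repressor Skil (-0.29 in each), while Smad2, a receptor-activated SMAD, was higher in inguinal GFP+ cells (0.25, adjusted p = 4.76e-05). The ubiquitin protease gene Usp15 was lower in inguinal GFP- cells (-0.38, adjusted p = 8.79e-07).

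Of 22 genes known to respond to TGF-beta, 10 were higher and 7 lower in epididymal GFP+ cells, and 3 were higher and 8 lower in inguinal GFP+ cells (77.3% and 50% of the list, against 41.4% and 12.1% of all genes). None of the 22 was weakly detected, and of all probe sets not weakly detected 51.4% and 14.1% were called. The matrix protein gene Postn averaged 29636 ± 627 in epididymal GFP+ and 5791 ± 334 in epididymal GFP- cells (SD, n = 3; 2.35, SE 0.03, adjusted p = 1.42e-16). The transcription factor Snai2 was higher in the same cells (2.09, adjusted p = 3.52e-14), and Cdkn2b, a cell cycle inhibitor, was lower (-2.08, adjusted p = 1.72e-13). In inguinal GFP+ cells Ankrd1, Cnn1 and Col4a1 were lower, by -0.51, -0.22 and -0.21 (adjusted p = 0.000137, 3.46e-05 and 0.000144). Tgfbi, a secreted matrix protein named for its induction by TGF-beta, averaged 1536 ± 358 in inguinal GFP+ and 99.6 ± 12.01 in epididymal GFP+ cells (3.73, adjusted p = 2.74e-10). It was also lower in epididymal GFP+ than in GFP- cells (-1.77), the opposite sign to Postn. The list holds genes that moved both ways in each contrast, with medians of -0.01 and -0.03.

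**Figure D4:**
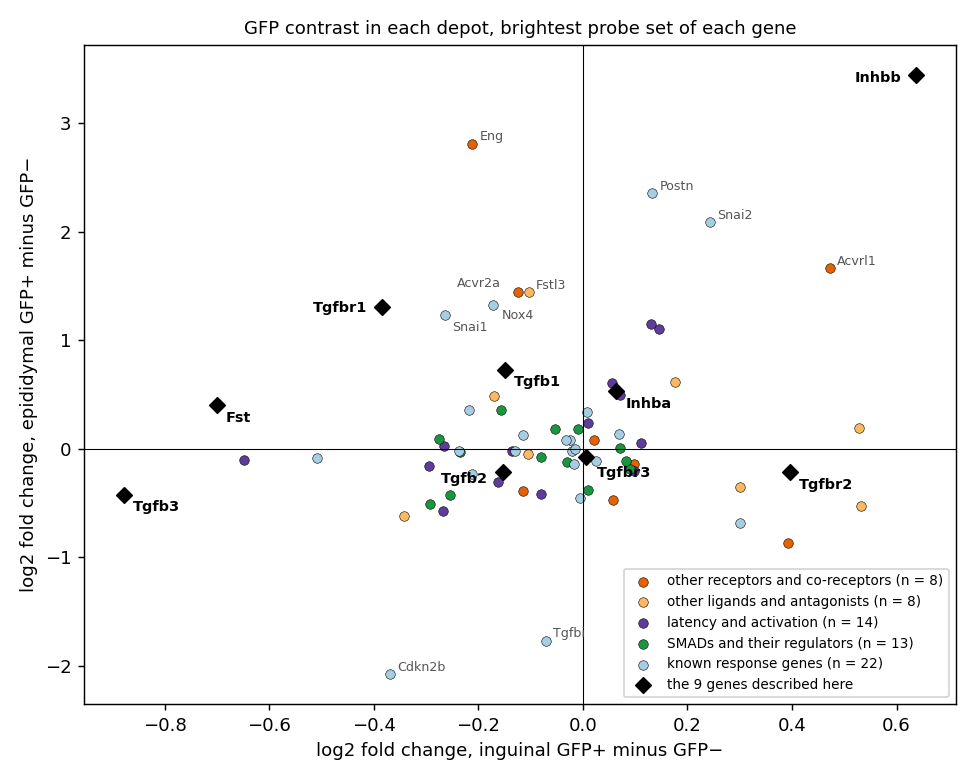
Log2 difference of GFP+ minus GFP- cells in the epididymal (vertical) against the inguinal depot (horizontal) for the brightest probe set of the 9 genes (black diamonds) and of 65 other pathway genes by list (circles). The axes have different scales, and Inhbb, at 0.64 and 3.45, lies at the upper right while Tgfbr1 and Fst lie upper left and Tgfb3 lower left.

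Genes with the most similar profiles were looked up for the 4 members whose group means spanned at least 1 on the log2 scale, by Pearson r over the 12 arrays among 8675 genes. The arrays fall into 4 groups, so r is a description of shared group levels. Nearest to Inhbb were Gpx3, which encodes a secreted glutathione peroxidase (r = 0.999), Rps4l (0.997) and Cyp4v3 (0.997). Gpx3 averaged 10603, 7780 and 7293 in inguinal GFP+, inguinal GFP- and epididymal GFP+ cells and 1443 in epididymal GFP- cells. Nearest to Tgfb3 were Aif1l (0.990), Ltbp2 (0.988) and Klf5 (0.986), the second of them the latent TGF-beta binding protein described above. Nearest to Tgfbr1 were Rasl12 (0.983), the cytokine gene Il6 (0.983) and Lmcd1 (0.982), and Il6 averaged 4340.2 in epididymal GFP+ cells and 1540.1 to 1884 in the other groups. Nearest to Fst were Slc7a7 (0.992), Pcolce2 (0.989) and P2ry6 (0.982).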

How the data were processed

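Total RNA of 12 samples, 3 in each of 4 groups taken from the sample labels, was labelled with biotin and hybridised to Affymetrix arrays, per the labels' protocols. The deposited values are probe set signal intensity on a linear scale (0.6 to 46213). How the authors summarised, background-corrected and scaled them is not given in the sources used here, and no further normalization was applied. The platform annotation gave 1 symbol for 20380 probe sets, several for 691 and none for 1555, and symbols were updated through Entrez identifiers with RefSeq (GRCm38.p6), 29 of them without a match.

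Values were taken as log2(intensity + 16) and lmFit and eBayes with a trend (limma 3.58.1, R 4.3.3) were run over all 22626 probe sets and 12 arrays, with Benjamini-Hochberg adjustment at 0.05. The probe set with the highest mean stood for its gene where one value was needed. Pairs of probe sets were tested on their log2 difference within arrays. The contrasts inguinal GFP+ minus epididymal GFP- and inguinal GFP- minus epididymal GFP+ were added after the data were seen, to order the groups. The fits were tested on simulated data. The number of arrays limits the precision.

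The 9 genes and all lists were chosen with earlier results of these data known. The rule for named genes took every probe set of the 9, up to 3 called genes per pathway list and comparison by smallest adjusted p, the 3 most similar profiles of each member spanning at least 1 on the log2 scale, Zfp423, and marker genes; Bambi and Acvr1 in the epididymal contrast, Ltbp2 to Ltbp4 and Mmp2 between depots, Smad7 and Tgfbi in the epididymal contrast and the uncalled Fstl3 contrast were named after their values were seen. The labels do not say what the replicate numbers mark, and the main fit did not pair samples by them. Deviations of arrays with the same number in different groups correlated at -0.05 to 0.04 over 18 pairs, which cannot show whether such samples share an origin. Alternatives were pseudocounts of 1 and 64, quantile normalization, median centring, weakly detected probe sets left out, only the groups compared, no variance trend, the replicate number as a block, leaving out each array in turn, and 1 probe set per gene. For the pathway genes they were added after the data were seen. Figures were drawn with matplotlib 3.10.9.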

Additional observations from a re-analysis of the deposited data

Results flagged for a closer look

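For 7 of the 9 genes the difference between GFP+ and GFP- cells itself differed between the inguinal and the epididymal depot in limma, on the brightest probe set of each. The inguinal contrast minus the epididymal contrast, on the log2 scale, was -2.81 for Inhbb (adjusted p = 3.57e-13), -1.69 for Tgfbr1 (5.38e-12) and -1.10 for Fst (2.66e-09). It was -0.88 for Tgfb1 (5.19e-05), -0.46 for Inhba (5.21e-05), -0.45 for Tgfb3 (0.000107) and 0.61 for Tgfbr2 (1.15e-05). On these probe sets Tgfbr1, Tgfbr2 and Fst had called differences of opposite sign in the depots, Inhbb and Tgfb3 called differences of the same sign and unequal size, and Tgfb1 and Inhba a called difference in epididymal cells alone. No dimmer probe set of these genes was called in the interaction. Values were -0.32 for Tgfbr1 1420894_at (adjusted p = 0.553) and -0.06 for Tgfbr2 1425444_a_at (0.874). For Inhbb 1426859_at the value was -0.39 (0.0611), called in 4 of 19 alternatives. In the same interaction 34.1% of all genes were called.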

How the results depend on the processing

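Of 2273 alternative values for 112 combinations of a member probe set and a comparison, 2208 stayed on their side of the threshold, 51 lost a call, 14 gained one and none reversed a called sign; 27 changed sign between values called in neither setting. In 92 of the 112 combinations no alternative crossed the threshold. The count of probe set pairs that differ in the epididymal GFP contrast rose from 2 to 5 with a pseudocount of 64, and the inguinal count ran from 0 to 1 when each array was left out. With 1 probe set per gene 8 members were called between depots in GFP+ cells in place of 13 probe sets, fewer being tested. With the replicate block 11 of 16 probe sets were called in the epididymal contrast, the lost one being Tgfbr2 1425444_a_at (0.37, adjusted p = 0.0507), and no other call in the 5 planned comparisons changed. The block rests on a number whose meaning the labels do not give, and 4 of 12 arrays correlated best with their own number.

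For the 65 pathway genes and Zfp423, 59 of 264 gene and comparison combinations crossed the threshold under at least 1 alternative, and 5 of 5520 values reversed, all between depots in GFP+ cells. Under quantile normalization Fn1, Lox and Thbs1 moved to -0.0023, -0.00020 and -0.012, and under median centring Cdkn1a and Col3a1 moved to 0.067 and 0.070. Changes this small near 0 rest on how the arrays are scaled. Weakly detected probe sets of Tgfbr1 and Tgfbr2 lie near the level of olfactory receptor probe sets, which limits what they can show.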
